A study of Mus musculus with 11 samples.

Results

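Cell cycle genes were examined in RNA sequencing counts of mouse hearts taken 3 days after myocardial infarction (MI). The genes were chosen by name, as well known S phase and mitotic genes. Each of the 48 names matched 1 row of the count table, which holds 55421 genes. For the description they were divided by role into 14 S phase genes and 34 mitotic genes. All 48 had counts in every library, the lowest being 4, and all 48 passed the filter on low counts in each comparison.

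The study asked what inhibition of the sheddase ADAM10 does to the infarcted heart. Of 11 female C57BL/6J mice, all 8 weeks old, 4 had a ligation of the left anterior descending coronary artery and received the inhibitor GI254023X (A10i) at 100 mg/kg, and 4 had the ligation and received its solvent DMSO. The other 3 were sham operated (Sham) and carry the treatment label DMSO as well, so the solvent was common to all groups. In infarcted mice the tissue is labelled as the infarct border zone, and in Sham mice as healthy tissue, and by the study's methods substances came from implanted osmotic pumps. Each library is from 1 mouse, named here by its label. The DMSO mice were A105, A127, A128 and A129, the A10i mice A116, A117, A119 and A120, and the Sham mice S1, S2 and S3.

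A cell that divides copies its DNA in S phase and distributes the copies in mitosis. The E2F transcription factors and cyclin E open S phase, and the MCM helicase unwinds the DNA ahead of the polymerases. Cyclin B with Cdk1 starts mitosis, the kinetochore and its checkpoint hold the chromosomes until all are attached, and the anaphase-promoting complex then lets them part. In the adult heart nearly all cardiomyocytes are out of the cycle, while fibroblasts, endothelial cells and invading immune cells divide in the days after an infarct.

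Library totals lay between 21702623 and 29511768 counts. As a check of the tissue, the 8 cardiomyocyte markers had a summed level of 88828 to 90752 in Sham mice, in CPM (counts scaled to a common library total), and of 40522 to 61513 in DMSO and 51315 to 70646 in A10i mice. These are bulk libraries, in which more dividing cells and more RNA per dividing cell cannot be told apart. DMSO mouse A105 stood apart from the rest of its group in these genes, so the main counts, medians and genes of the comparisons with the DMSO group are also given without it. A105 was picked by its low level in these same genes, so larger rises and more calls without it were favoured in advance. Such values show how far the result depends on this mouse and are no separate support for a rise.

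Promoters of the genes were taken from RefSeq for GRCm38.p6, the assembly called mm10 in the counts' processing, as windows from 250 bases before to 50 after a gene's start. Windows were found for 41 of the 48 genes, 44 windows in all. Letters of 3 kinds known from cell cycle promoters were searched on both strands. They were the cell cycle homology region (CHR, TTTGAA or TTTAAA), the CCAAT box, and an E2F element (TTTCCCGC, TTTCGCGC, TTTGCCGC or TTTGGCGC). Of the 31 windows of mitotic genes 27 held a CHR (87.1%), against 5 of the 13 windows of S phase genes (38.5%) and 27.6% of all 32851 windows. A CCAAT box was in 24 mitotic windows (77.4%) and 9 S phase windows (69.2%), against 37.4% of all windows. The E2F letters showed the opposite order, with 4 of 13 S phase windows (30.8%), 1 of 31 mitotic windows (3.23%) and 2.26% of all windows. Such matches describe letters and were not tested for binding. The start of 6 of the 44 windows lay more than 250 bases inside the gene as counted, among them that of E2f1, which held none of these letters and is not shown.

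The 250 bases before the start are shown for Mcm5, Ccnb1 and Bub1, the genes of their roles with the largest log2 fold change in DMSO against Sham that have a window, and for Cenpf, which moved the other way and was chosen after its values were seen. Capitals mark CHR, CCAAT and E2F letters on either strand. Mcm5 (chr8:75109259-75109508, plus strand) has a CHR, a pair of E2F matches on opposite strands that overlap in TTTCGCGCCAAA, and a pair of CCAAT boxes. Ccnb1 (chr13:100786487-100786736, minus strand) has a pair of CCAAT boxes followed by a CHR, and its start in RefSeq lies 84 bases inside the counted gene. Bub1 (chr2:127831860-127832109, minus strand) has a CCAAT box on each strand and no CHR in its window. Cenpf (chr1:189688087-189688336, minus strand) has a CHR and a pair of CCAAT boxes, with a further CHR just after the start that is not shown.
Mcm5: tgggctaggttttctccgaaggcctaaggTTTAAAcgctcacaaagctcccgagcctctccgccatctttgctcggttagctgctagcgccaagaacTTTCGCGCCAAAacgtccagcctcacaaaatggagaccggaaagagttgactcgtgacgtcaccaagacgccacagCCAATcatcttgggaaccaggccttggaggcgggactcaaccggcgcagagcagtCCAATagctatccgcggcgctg
Ccnb1: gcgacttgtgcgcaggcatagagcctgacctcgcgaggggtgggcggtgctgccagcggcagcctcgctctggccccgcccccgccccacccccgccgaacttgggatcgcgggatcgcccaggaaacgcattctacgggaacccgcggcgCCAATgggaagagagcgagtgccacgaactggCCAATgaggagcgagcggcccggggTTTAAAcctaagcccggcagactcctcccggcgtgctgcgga
Bub1: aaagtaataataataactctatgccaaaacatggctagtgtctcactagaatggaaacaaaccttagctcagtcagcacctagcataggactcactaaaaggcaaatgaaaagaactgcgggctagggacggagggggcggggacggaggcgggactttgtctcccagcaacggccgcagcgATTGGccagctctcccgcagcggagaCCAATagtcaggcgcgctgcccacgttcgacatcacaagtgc
Cenpf: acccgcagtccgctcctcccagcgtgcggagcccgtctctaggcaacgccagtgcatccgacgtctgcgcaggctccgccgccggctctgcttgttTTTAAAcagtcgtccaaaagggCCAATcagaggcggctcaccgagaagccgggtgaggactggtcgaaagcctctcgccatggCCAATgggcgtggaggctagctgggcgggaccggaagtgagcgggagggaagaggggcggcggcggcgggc

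The first comparison, DMSO against Sham, asks how the genes stood in the infarcted heart without inhibitor. Of the 48 genes 46 had a positive log2 fold change and 2, Cenpa and Cenpf, a negative one, with a median of 1.74 against 0.0021 over all 17117 genes tested. At an edgeR adjusted p under 0.01, 4 genes rose, Mcm5, Mcm6, Pcna and Tyms, where 12.9% of all genes rose. All 4 act in S phase. None of the 34 mitotic genes rose by edgeR, with 27 of them higher at an unadjusted p under 0.05 (25.9% of all genes) and 6 called by DESeq2 (9.28% of its 31308 genes). Cenpf alone fell, where 9.60% of all genes fell. In 10 of the 48 every DMSO mouse was above every Sham mouse, a pattern held by 25.6% of all genes, and Cenpa and Cenpf were lower in every DMSO mouse, as were 22.8% of all genes. The calls rested on single mice. Without mouse A105 the median was 2.06, 40 genes rose (13.3% of all genes) and Cenpf fell, and without any 1 of the Sham mice edgeR called none, with 21 to 37 of the 48 higher at an unadjusted p under 0.05, as were 21.5% to 22.3% of all genes.

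The same comparison for A10i against Sham gave 39 of 48 genes that rose, where 13.7% of all 16971 genes rose and 9.11% fell. Those that rose were 8 of the 14 S phase genes and 31 of the 34 mitotic genes. By edgeR none of the 48 fell, with 2 lower at an unadjusted p under 0.05 (22.8% of all genes) and 1 called lower by DESeq2 (6.56% of its 30645 genes). The median log2 fold change was 2.16 over all 48, 1.07 over the S phase genes and 2.43 over the mitotic genes. In 44 genes every A10i mouse was above every Sham mouse (24.8% of all genes), and in Cenpa and Cenpf every one was below (23.4% of all genes). This count too moved with the Sham mice, to 9 genes without S1 and 14 without S3, where 6.22% and 6.15% of all genes rose. It moved with the fit as well, to 7 genes (14.6% of the 48) when all 11 libraries shared one estimate of the spread, under which 10.2% of all genes rose. The comparisons with Sham share the 3 Sham mice, and a larger count in A10i than in DMSO does not show that the treatments differed.

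**Figure D1:**
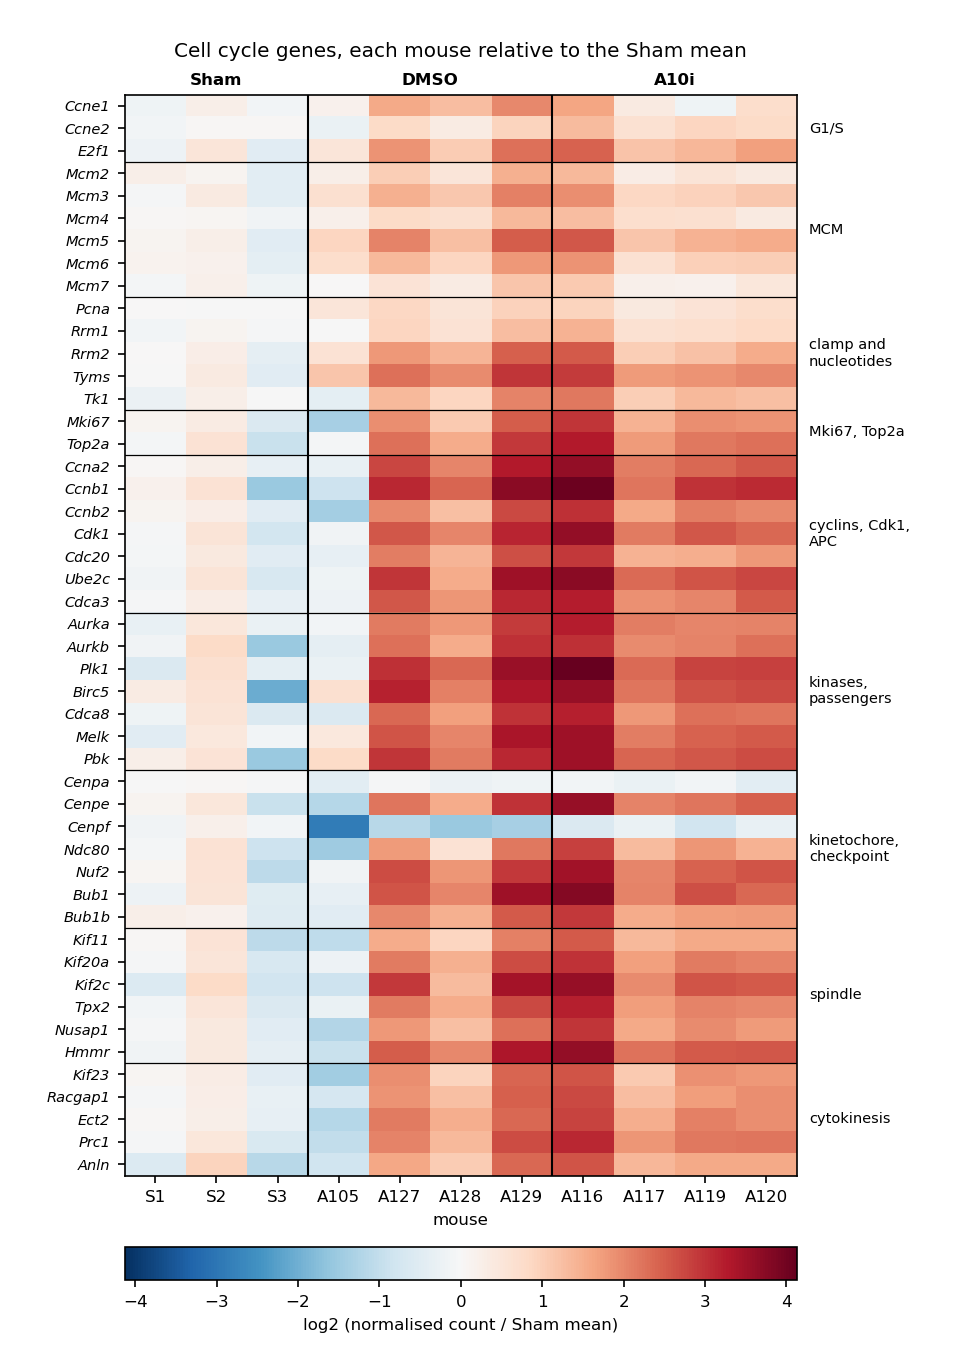
Heat map of the 48 genes (rows, in order of role) in the 11 mice (columns), coloured by log2 of the normalised count over the mean of the 3 Sham mice. The columns of A127, A128, A129 and the 4 A10i mice are red in nearly all rows, that of A105 is pale in S phase genes and pale or blue in mitotic genes, and the rows of Cenpa and Cenpf are pale or blue in infarcted mice.

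Mouse A105 was the lowest of the 4 DMSO mice in all 48 genes. It was above every Sham mouse in 8 of 14 S phase genes and in 2 of 34 mitotic genes, Birc5 and Pbk, and below every Sham mouse in 2 S phase and 14 mitotic genes. Mean log2 CPM over the S phase genes was 2.77 in A105, against 3.31 to 4.20 in the other DMSO mice and 2.17 to 2.63 in Sham mice. Over the mitotic genes it was 0.53 in A105, against 2.49 to 3.73 in the other DMSO mice and 0.48 to 1.55 in Sham mice. By this mean its S phase genes stood between Sham and the other DMSO mice, and its mitotic genes within the range of Sham near its lower end. By summed CPM, where abundant genes weigh more, its mitotic genes, with 83.04, lay below all Sham mice (132 to 204). In A10i mice the mean was 3.18 to 4.21 over S phase genes and 2.75 to 4.08 over mitotic genes.

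Within groups the mice kept nearly one order over the genes. Mouse A129 was the highest DMSO mouse in 46 genes, A116 the highest A10i mouse in 47, and S2 the highest Sham mouse in 45, while A117 was the lowest A10i mouse in 42. The genes are therefore not independent readings of a condition, since a mouse that was high in one was high in nearly all. The median coefficient of variation over the genes was 29.96% in Sham, 66.9% in DMSO, 40.2% in DMSO without A105 and 46.0% in A10i. The largest range within a group was that of Ccnb1 in DMSO mice, where the highest mouse had 24.3 times the normalised count of the lowest.

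The distance between the levels of mitotic and S phase genes also differed by mouse. The mean log2 CPM of mitotic genes minus that of S phase genes was -0.13, -0.43, -0.22 and -0.32 in A10i mice A116, A117, A119 and A120. In the DMSO mice it was -2.24 in A105, -0.52 in A127, -0.82 in A128 and -0.47 in A129, and in the Sham mice -1.36, -1.08 and -1.70. The 4 A10i values thus lay above all DMSO values, though only narrowly above those of A127 and A129. The narrowest step, from A129 to A117, rested on Cenpf, a mitotic gene with 5.48 log2 CPM in A117 and 4.39 in A129. Without Cenpf the order of A117 and A129 would be reversed. The separation of A10i from DMSO therefore cannot be read as a shift of the mitotic genes together. The DMSO values without A105 lay above those of Sham. This is a description over chosen genes and carries no test.

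**Figure D2:**
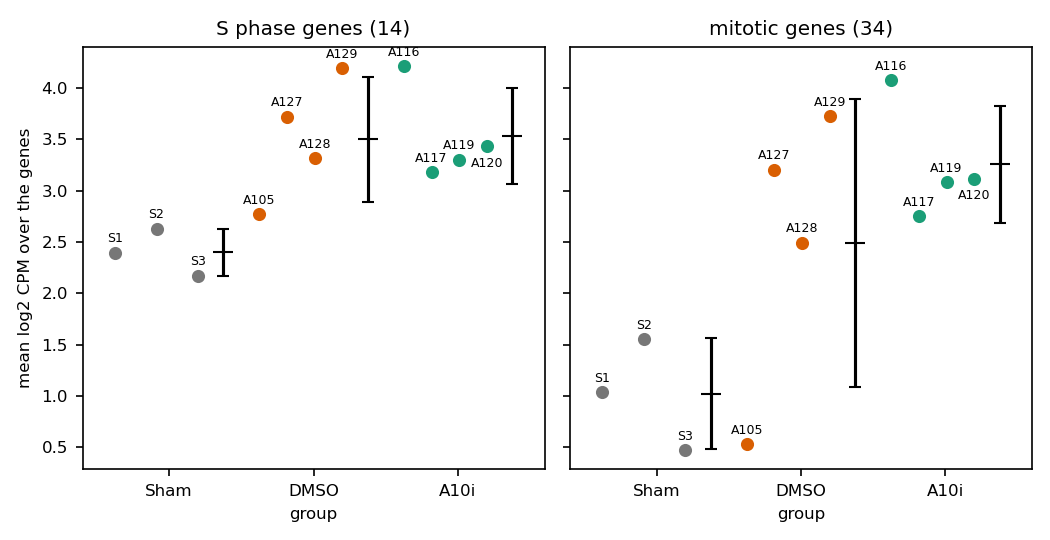
Mean log2 CPM over the 14 S phase genes (left) and the 34 mitotic genes (right) in each mouse, by group, with the group mean and SD beside the points. In the right panel A105 (0.53) lies among the Sham mice (0.48 to 1.55), and in the left panel it lies above them (2.77 against at most 2.63).

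Among the G1/S regulators, E2f1, a transcription factor that turns on S phase genes, had 43.4, 70.2 and 35.99 normalised counts in Sham mice S1, S2 and S3. In the DMSO mice it had 70.4 in A105, 181 in A127, 103 in A128 and 240 in A129, and in the A10i mice 271 in A116, 112 in A117, 129.1 in A119 and 160 in A120. Every infarcted mouse was above the Sham mice, A105 by a margin of less than 1 count. The log2 fold change was 1.56 ± 0.44 (SE) in DMSO (edgeR adjusted p 0.0214) and 1.74 ± 0.36 in A10i (edgeR adjusted p 0.00548), and without A105 it was 1.77 in DMSO, past the threshold.

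The cyclin E genes, whose products activate Cdk2 at the entry to S phase, differed from each other. Ccne1 had a mean of 32.6 ± 5.52 (SD, n = 3) normalised counts in Sham, 85.0 ± 38.2 (n = 4) in DMSO and 56.2 ± 31.0 (n = 4) in A10i mice, where A119 had 28.6 and lay below the Sham mice. Ccne2 had 75.0 ± 4.27 in Sham mice, 106 ± 35.7 in the DMSO group and 142 ± 29.3 with A10i, and rose in A10i against Sham (log2 fold change 0.93 ± 0.18, edgeR adjusted p 0.0031). Of the exon bases of Ccne2, 17.4% are also exons of Ints8 on the opposite strand, and how the counting treated strand was not stated.

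In the MCM helicase, Mcm5 carried the largest change. It had 147, 158 and 97.7 normalised counts in Sham mice, 249 in A105, 559 in A127, 315 in A128 and 754 in A129, and 802, 300, 366 and 387 in A10i mice A116, A117, A119 and A120. No infarcted mouse overlapped the Sham mice, and the log2 fold change was 1.80 ± 0.39 in DMSO (edgeR adjusted p 0.00707) and 1.79 ± 0.37 in A10i (edgeR adjusted p 0.00599). All 6 helicase genes had positive values in both comparisons with Sham, from 0.57 in Mcm7 to 1.80 in Mcm5 in DMSO and from 0.53 in Mcm7 to 1.79 in Mcm5 in A10i. Mcm6 rose with Mcm5 in DMSO mice, by 1.24 ± 0.27 (edgeR adjusted p 0.00753), and Mcm5 was the only one past the threshold in A10i mice, with Mcm3, Mcm4 and Mcm6 at edgeR adjusted p of 0.0108, 0.0111 and 0.0125.

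Pcna, the sliding clamp of the DNA polymerases, was the S phase gene with the least spread. It had 395, 383 and 384 normalised counts in Sham mice, 550, 696, 554 and 754 in DMSO mice A105, A127, A128 and A129, and 739, 509, 573 and 637 in A10i mice A116, A117, A119 and A120. The groups with an infarct did not overlap Sham, and Pcna rose by 0.71 ± 0.13 in DMSO (edgeR adjusted p 0.00248) and by 0.67 ± 0.12 in A10i (edgeR adjusted p 0.00203) on the log2 scale. Per length it was the most abundant of the 48 genes in infarcted mice, with mean FPKM (CPM divided by the gene's length in kilobases) of 6.31 in Sham, 10.4 in DMSO and 10.01 in A10i.

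Tyms, thymidylate synthase, had the largest S phase difference. Its normalised counts were 45.6, 59.8 and 33.9 in Sham, 102, 223, 181 and 359 in DMSO and 347, 158, 168 and 184 in A10i mice, in the same order of mice as above. It rose by 2.21 ± 0.42 in DMSO (edgeR adjusted p 0.00391) and 2.202 ± 0.34 in A10i (edgeR adjusted p 0.00141), again with no overlap with Sham. Without A105 the values in DMSO were 1.99 in Mcm5, 1.36 in Mcm6, 0.76 in Pcna and 2.42 in Tyms, all still past the threshold. The subunits of ribonucleotide reductase, Rrm1 and Rrm2, and the salvage enzyme thymidine kinase, Tk1, rose in A10i by 0.93, 1.70 and 1.52. In DMSO their values were 0.74, 1.71 and 1.21 and did not pass, Rrm2 at an edgeR adjusted p of 0.01001.

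Mki67, the gene of the proliferation marker Ki-67, had 358, 422 and 220 normalised counts in Sham mice. Among DMSO mice A105 had 130, below every Sham mouse, while A127, A128 and A129 had 1267, 707 and 1868. The A10i mice A116, A117, A119 and A120 had 2570, 908, 1255 and 1206, all above Sham. The log2 fold change against Sham was 1.57 ± 0.72 in DMSO (edgeR adjusted p 0.116) and 2.16 ± 0.41 in A10i (edgeR adjusted p 0.00528), and without A105 it was 1.92 in DMSO, past the threshold. Top2a, the topoisomerase that untangles sister chromosomes, stood likewise at 2.01 ± 0.66 in DMSO (edgeR adjusted p 0.0400) and rose by 2.49 ± 0.47 in A10i (edgeR adjusted p 0.00531).

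Ccnb1, the gene of cyclin B1, had the largest log2 fold change of the 48 in both comparisons with Sham, at a low count. It had 13.4, 18.03 and 4.11 normalised counts in Sham mice, 6.49 in A105, 103 in A127, 62.6 in A128 and 158 in A129, and 195, 55.3, 93.1 and 101 in A10i mice A116, A117, A119 and A120. A105 lay within Sham and the other 7 infarcted mice lay above it. The value was 2.78 ± 0.88 in DMSO (edgeR adjusted p 0.0337) and 3.21 ± 0.55 in A10i, where it passed (edgeR adjusted p 0.00232), and without A105 it was 3.14 in DMSO and passed there too. The other genes of this role are Ccna2 and Ccnb2, cyclins of S phase and mitosis, their kinase Cdk1, and Cdc20, Ube2c and Cdca3, which work with ubiquitin ligases of mitosis. All 7 had positive values in DMSO, 1.73 to 2.78, with none past the threshold, and all 7 rose in A10i, by 2.04 to 3.21.

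The mitotic kinases and the chromosomal passengers moved together, all 7 of them rising in A10i. Plk1, a kinase needed from centrosome maturation to cytokinesis, had 15.6, 37.0 and 17.5 normalised counts in Sham mice, 19.5 in A105, 188 in A127, 120 in A128 and 276 in A129, and 408, 118.5, 162 and 164 in A10i mice. Its log2 fold change was 2.66 ± 0.76 in DMSO (edgeR adjusted p 0.0225) and 3.17 ± 0.54 in A10i (edgeR adjusted p 0.0025), and without A105 it was 3.01 in DMSO, past the threshold. With Aurora kinase A (Aurka), the passengers Aurkb, Birc5 and Cdca8, and the kinases Melk and Pbk, the rises in A10i were 2.37 to 3.17. In DMSO the 7 values were 2.01 to 2.66 and none passed, Pbk being nearest at an edgeR adjusted p of 0.0124. Birc5 and Pbk were the only mitotic genes in which A105, with 41.1 and 31.4 normalised counts, was above every Sham mouse.

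The kinetochore genes held the exceptions. Cenpf, a large protein of the outer kinetochore that also binds microtubules, had 1241, 1614 and 1286 normalised counts in Sham mice, 188, 629, 481 and 535 in DMSO mice A105, A127, A128 and A129, and 922, 1137, 799 and 1111 in A10i mice A116, A117, A119 and A120. The 3 groups did not overlap, with Sham highest, A10i between and DMSO lowest. Cenpf fell by 1.59 ± 0.32 on the log2 scale in DMSO against Sham (edgeR adjusted p 0.00476) and stood at -1.355 without A105, still past the threshold. In A10i against Sham the value was -0.47 ± 0.14 and did not pass (edgeR adjusted p 0.0250). The call in DMSO was lost without A128, without A129, without any 1 of the Sham mice, with no filter on low counts, and when library size alone replaced the TMM scaling (log2 fold change -1.37, edgeR adjusted p 0.0127), a scaling under which the median of all genes moved from 0.0021 to 0.21.

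Cenpa, the histone variant that marks centromeres, was also lower in every infarcted mouse, with 945, 993 and 914 normalised counts in Sham mice, 708 to 913 in DMSO and 704 to 885 in A10i mice. Its log2 fold change was -0.23 ± 0.09 in DMSO (edgeR adjusted p 0.0740) and -0.23 ± 0.09 in A10i (edgeR adjusted p 0.0618), and with library size alone -0.02 and -0.04. Per length Cenpa and Cenpf were among the most abundant of the genes in Sham hearts, at 6.34 and 3.50 FPKM, while Mki67 stood at 1.30 and Ccnb1 at 0.110.

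The other 5 genes of the role, Cenpe, Ndc80, Nuf2, Bub1 and Bub1b, are kinetochore proteins and kinases of the spindle checkpoint. Bub1 had 17.8, 29.4 and 14.4 normalised counts in Sham mice, 16.2 in A105, 123 in A127, 83.2 in A128 and 234 in A129, and 281, 84.9, 129.1 and 106 in A10i mice. All 5 rose in A10i, by 1.97 to 2.86, and had values of 1.28 to 2.45 in DMSO with none past the threshold.

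The genes of the spindle, the motors Kif11, Kif20a and Kif2c and the microtubule-binding proteins Tpx2, Nusap1 and Hmmr, all rose in A10i, by 1.83 to 2.84. In DMSO their values were 1.24 to 2.38 with none past the threshold, and in A105 all 6 lay within or below the range of Sham. Of the exon bases of Kif20a, 29.3% are exons of Cdc23 on the opposite strand, and for Ube2c 22.8% are exons of Tnnc2, so reads of these genes may be shared. The genes of cytokinesis, Kif23, Racgap1, Ect2, Prc1 and Anln, had values of 1.42 to 1.75 in DMSO and 1.85 to 2.41 in A10i. All 5 were above Sham in every A10i mouse, and all but Anln rose (Anln, edgeR adjusted p 0.0217, where S2 had 239 against 86.8 and 57.6 in S1 and S3).

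**Figure D3:**
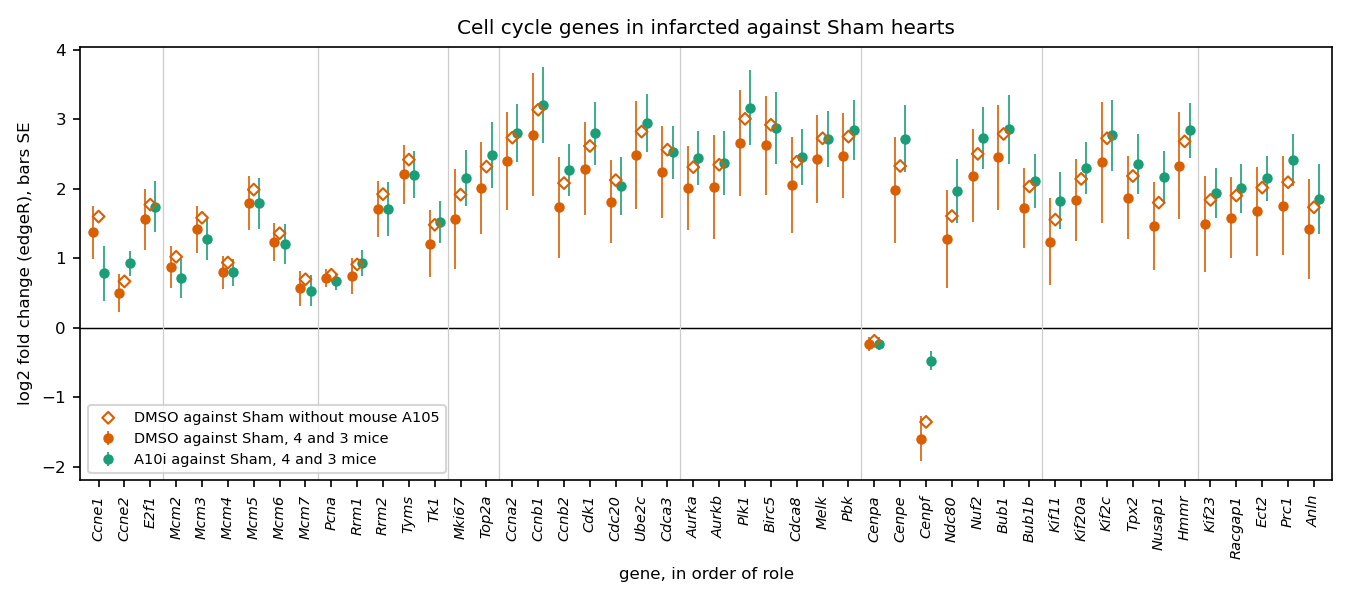
Log2 fold change from edgeR of each of the 48 genes, in order of role, in DMSO against Sham (orange points), the same without mouse A105 (open diamonds) and A10i against Sham (green points), with SE bars on the points. The open diamonds lie above the orange points in all 48 genes, and Cenpa and Cenpf are the only genes under 0.

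A10i against DMSO is the comparison that asks what the inhibitor changed in the infarcted heart. None of the 48 genes passed an edgeR adjusted p under 0.01, and neither did any of the 16792 genes tested (0% higher and 0% lower). At an unadjusted p under 0.05, 1 of the 48 was higher, Cenpf, where 7.10% of all genes were higher, and none was lower, where 6.73% of all genes were. DESeq2 called none of the 48 either, and over its 31662 genes it called 0.328% higher and 0.388% lower. The median log2 fold change was 0.40, against 0.0034 over all genes, and 0.06 without A105.

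The count of positive values differed between mitotic and S phase genes. Of the 34 mitotic genes all had a positive value, from 0.0035 in Cenpa, which turned negative under several alternatives, DESeq2's scaling and library size alone among them, to 1.12 in Cenpf, with a median of 0.45, whereas of the 14 S phase genes 4 were positive, with a median of -0.0086. All 6 helicase genes were below 0, from -0.17 to -0.0031. These values moved with single mice. Leaving out A105 gave a median of 0.11 with 29 of 34 mitotic genes positive, leaving out A116 gave 0.07 with 24 of 34, and leaving out A129 gave 0.93 with 34 of 34. The count of positive S phase genes moved further, to 1 of 14 without A116 (median -0.30), 11 of 14 without A117 (median 0.11) and 13 of 14 without A129 (median 0.28). In these fits the S phase median moved less than the mitotic median. Without A119, A120 and A127 the S phase count was 10, 9 and 7 of 14. As shares of each phase, the difference between the phases was smaller in every fit without 1 mouse, and smallest without A129. The standard errors were large beside the values, with Mki67 at 0.58 ± 0.62, Ccnb1 at 0.43 ± 0.65 and Mcm5 at -0.01 ± 0.39.

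Cenpf was the only one of the 48 with no overlap between the groups, a pattern held by 3.78% of all genes in the upward direction. All 4 A10i mice (799 to 1137 normalised counts) were above all 4 DMSO mice (188 to 629), and the difference on the log2 scale was 1.12 ± 0.30 (edgeR adjusted p 0.161). Without A105 the value was 0.86 (edgeR adjusted p 0.162), and DESeq2 gave an adjusted p of 0.0121 with all mice, still above the threshold. Cenpf and the mitotic genes that rose after infarction were both higher in A10i than in DMSO by sign, and none of these differences passed the test.

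**Figure D4:**
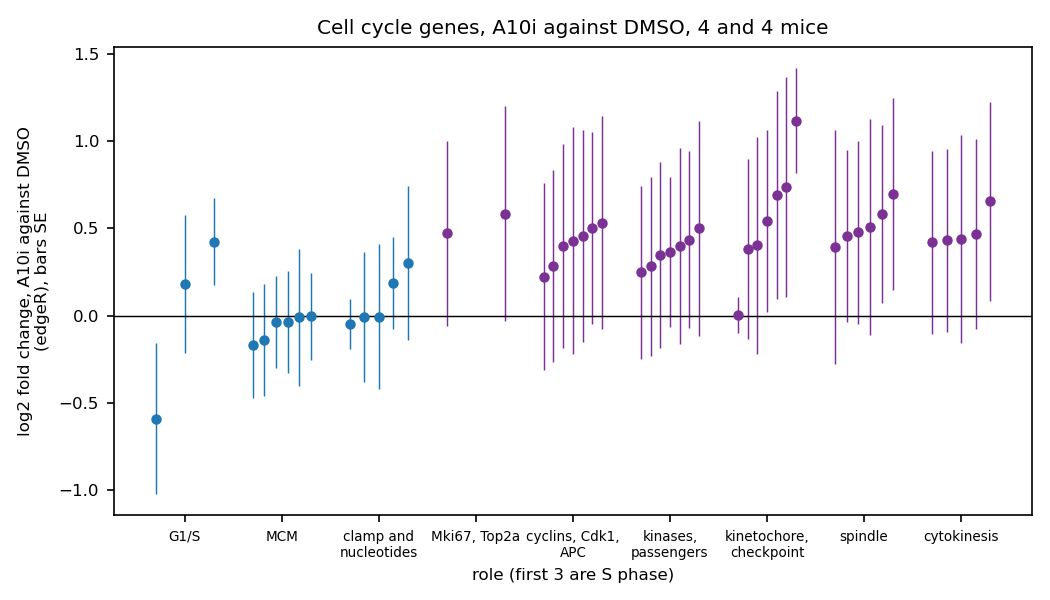
Log2 fold change from edgeR of A10i against DMSO for each of the 48 genes, grouped by role, with SE bars (4 and 4 mice). The points of the 3 S phase roles scatter about 0, those of the mitotic roles all lie above it, and most bars cross 0.

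Of 86 other genes of the cell cycle in 7 lists, 6 rose and 2 fell in DMSO against Sham, and 29 rose and 2 fell in A10i against Sham. In DMSO these were 6.98% and 2.33% of the genes, against 12.9% and 9.60% of all genes, and in A10i 33.7% and 2.33%, against 13.7% and 9.11%. Without A105, 28 rose in DMSO. In A10i against DMSO none of the 85 that could be tested passed, and at an unadjusted p under 0.05 edgeR had 3 higher and 1 lower, 3.53% and 1.18% against 7.10% and 6.73% of all genes. DESeq2 called none there. The genes that rose in DMSO were again mostly of DNA replication, 4 of 17 genes of the replication fork. The largest of them were Uhrf1, which helps to copy DNA methylation, with 1.94 ± 0.43 (edgeR adjusted p 0.00774), and Lig1, the ligase of Okazaki fragments, with 1.51 ± 0.32 (edgeR adjusted p 0.00614). Both rose in A10i too, by 1.88 and 1.38, and stood at -0.06 and -0.13 in A10i against DMSO.

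The other 4 calls in DMSO were Mad1l1, Ccnd2 and the CDK inhibitors Cdkn1a and Cdkn1c. Mad1l1, a protein of the spindle checkpoint, rose by 0.96 ± 0.15 (edgeR adjusted p 0.00133) and by 0.94 in A10i, with all infarcted mice between 261 and 367 normalised counts and the Sham mice between 132 and 169. A105, with 261, was here well above Sham. Ccnd2, the gene of cyclin D2, which acts in G1, fell by 0.97 ± 0.14 in DMSO (edgeR adjusted p 0.000784) and by 0.76 ± 0.12 in A10i (edgeR adjusted p 0.00141). It had 4776 to 5393 normalised counts in Sham, 2149 to 3376 in DMSO and 2416 to 3692 in A10i mice, and 0.20 ± 0.16 in A10i against DMSO.

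The genes of CDK inhibitors, brakes of the cycle, moved in opposite directions. Cdkn1a, the gene of p21, had 481, 609 and 581 normalised counts in Sham mice, 3249, 1662, 2722 and 3144 in DMSO mice A105, A127, A128 and A129, and 1684, 2326, 1420 and 1618 in A10i mice. It rose by 2.26 ± 0.23 in DMSO (edgeR adjusted p 0.000271) and 1.66 ± 0.17 in A10i (edgeR adjusted p 0.000319), and A105 had the highest level of all 11 mice. In A10i against DMSO it stood at -0.60 ± 0.22 (edgeR adjusted p 0.267), with A127 of the DMSO group within the A10i range.

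Cdkn1c, the gene of p57, had 793, 783 and 790 normalised counts in Sham and 212 to 437 in infarcted mice, and fell by 1.44 ± 0.14 in DMSO (edgeR adjusted p 0.000177) and 1.15 ± 0.13 in A10i (edgeR adjusted p 0.000301). The other inhibitors did not pass. In DMSO and A10i against Sham, Cdkn1b (p27) stood at -0.10 and -0.05, Cdkn2c (p18) at 0.04 and 0.44, Cdkn2d (p19) at 0.33 and 0.23, and Cdkn2b (p15) at 1.32 and 1.85, the last at an edgeR adjusted p of 0.0101 in A10i and at 3.796 to 30.3 normalised counts. Cdkn2a had 3.08 to 13.7 normalised counts and stood at -0.05 and 0.25. In A10i against DMSO, Cdkn2c stood at 0.40 ± 0.15 and did not pass (edgeR adjusted p 0.287). Every A10i mouse was above every DMSO mouse in it, a pattern held by 3.78% of all genes. The margin was narrow, with 364.0 normalised counts in A119 against 363.5 in A129.

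**Figure D5:**
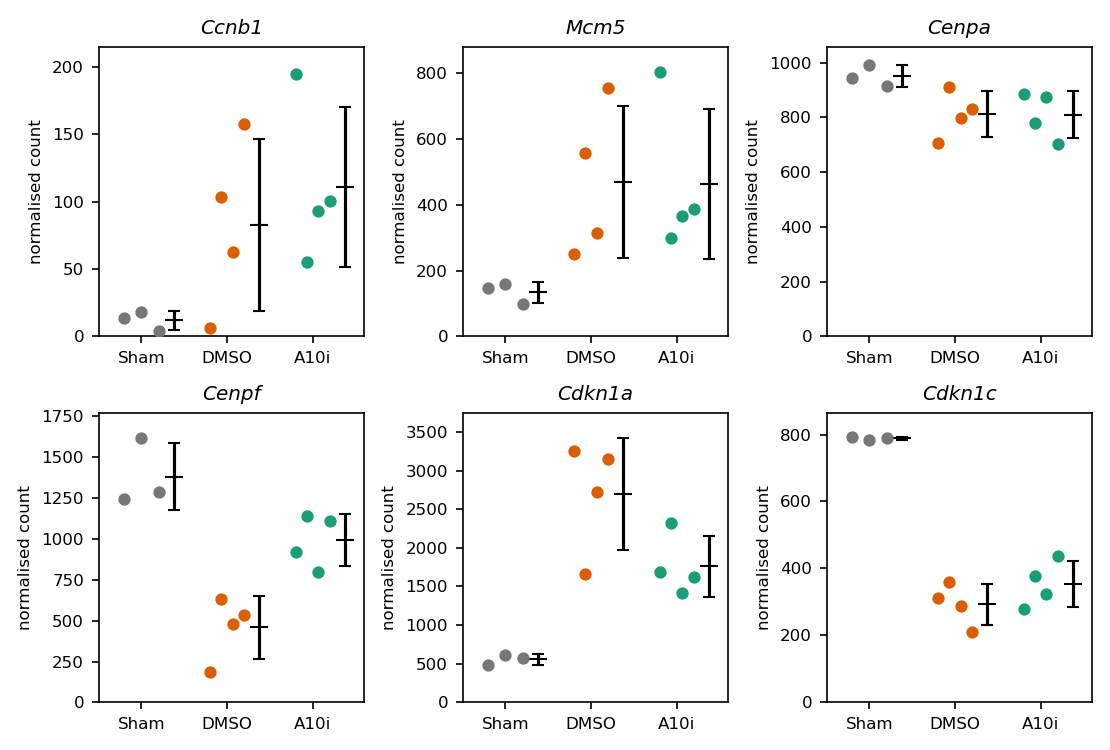
Normalised counts of Ccnb1, Mcm5, Cenpa, Cenpf, Cdkn1a and Cdkn1c in each mouse by group, with the group mean and SD beside the points. Ccnb1 and Mcm5 are higher in infarcted mice save for A105 in Ccnb1 (6.49), Cenpf has its 3 groups apart, and Cdkn1a and Cdkn1c lie apart from Sham in opposite directions.

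By summed level, markers of some cell types were highest or lowest in the same mice as these genes, and those of others were not. Summed CPM of 8 fibroblast markers was 1142 to 1242 in Sham mice, 1915 in A105, 3068 to 6360 in the other DMSO mice and 4817 to 8890 in A10i mice. By this sum, in which abundant collagen genes weigh most, the lowest infarcted mouse was A105. The highest of each group were A129 and A116, the same mice as for the cell cycle genes. Single markers did not all keep this order. Pdgfra was lowest in A127 (1481 normalised counts, against 1938 in A105), and Dcn was highest in A128 and A117 of their groups. Of these markers 4 of 8 rose in DMSO (12.9% of all genes) and 7 of 8 in A10i (13.7% of all genes). The 8 cardiomyocyte markers ran the other way in the same mice. Their summed CPM was 61513 in A105, the highest DMSO mouse, and A129 (40522) and A116 (51315) were the lowest of their groups. The 8 macrophage and monocyte markers had summed CPM of 98.6 to 104 in Sham, 189 in A105, 148 to 287 in the other DMSO mice and 184 to 353 in A10i mice, with A129 and A116 again highest.

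Neutrophil markers were also highest in A129 and A116 of their groups, but with lower levels in A10i than in DMSO mice. The 8 neutrophil markers had summed CPM of 1.11 to 2.22 in Sham, 94.3 in A105, 68.7 to 125 in the other DMSO mice and 13.8 to 47.6 in A10i mice. All 6 that could be tested rose in both comparisons with Sham, where 12.9% (DMSO) and 13.7% (A10i) of all genes rose. Red blood cell precursor markers, 6 genes, had 594 to 1287 in Sham, 3718 in A105, 234 to 944 in the other DMSO mice and 1045 to 5016 in A10i mice. Endothelial markers, 8 genes, had 908 to 931 in Sham, 724 to 863 in DMSO and 866 to 981 in A10i mice. By this sum every DMSO mouse was below every Sham and A10i mouse, though A129 and A120 nearly met, and A105 was the lowest. By mean log2 CPM the groups overlapped, with 6.36 in A129, 6.30 in S2 and 6.35 in A120. Of the 8 genes, 3 had positive and 5 negative values in DMSO against Sham. Of these 1, Cldn5, rose (12.9% of all genes) and 2 fell (9.60% of all genes). Among defining markers, Mmp8 was at 0 in S1 and S2 and Retnlg in S3, the T cell gene Cd3d was at 0 in S3, A129 and A120, and the B cell genes Ms4a1, Cd79a and Pax5 were at 0 in A128. The part of these cells in the levels of the cell cycle genes was not tested.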

How the data were processed

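Hearts of 11 mice (3 Sham, 4 DMSO, 4 A10i) were measured by strand-specific sequencing of poly(A) RNA. The authors deposited whole-number counts of fragments per gene, without normalization, which the submitters' processing notes credit to bcl2fastq 2.20.0, GSNAP and featureCounts 2.0.1 on mm10, with no strand setting given in the sources used here. The 92 spike-in rows, with 14 to 55 counts per library, were left out, which left 55421 genes. Totals were 21702623 to 29511768 counts. Replicate pairs differed beyond counting error (chi-square per degree of freedom 3.803 to 55.2 over 15 pairs), so none was a repeated library.

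Each of the 3 comparisons was fitted on its own groups with edgeR 4.0.16 in R 4.3.3 (filterByExpr, TMM scaling, robust quasi-likelihood test, two-sided, Benjamini-Hochberg adjustment over all genes tested, threshold 0.01). A gene was called, or said to rise or fall, when past it. Errors of log2 fold changes are standard errors. Normalised counts are counts scaled to the mean TMM library size of the 11 libraries, and log2 CPM used a prior count of 2. FPKM divided CPM by the gene length of the table. Alternatives were DESeq2 1.42.0, other scalings, filters of 1 or 10 counts, leaving out each mouse, a threshold of 0.05 and 1 fit to all 11 libraries. The scripts were tested on simulated data. Labels give no numbers that pair mice across groups. Each library is labelled as a separate mouse.

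The 48 genes, the 86 other cell cycle genes and the cell type markers were chosen with earlier results of these data known. All 48 were to be named, with, of each further list, the 2 largest rises and falls past the threshold in DMSO against Sham, and all CDK inhibitors. The study's own normalization and its weighting of hypotheses were not repeated.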

Additional observations from a re-analysis of the deposited data

Results flagged for a closer look

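Within-group outliers were looked for in the log2 CPM of each of the 48 genes and of 3 means over them, in the DMSO and the A10i groups of 4 mice, with Dixon's test at its 95% level. Of 102 tests, 3 were past it, fewer than 1 in 20, and all 3 were A10i mouse A116 lying above the rest of its group. The tests share the same mice and are not independent, so this count cannot be set against chance. In Aurka, the gene of a centrosome kinase, A116 stood at 3.13 log2 CPM, with a gap of 0.923 of the group's range. The checkpoint kinase gene Bub1b stood at 4.21 in A116, with a gap of 0.83. Anln, the gene of the cytokinesis scaffold anillin, stood at 4.92, with a gap of 0.84. In DMSO mice no gene was past it, A105 included. Sham, with 3 mice, was not tested.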

How the results depend on the processing

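With 3 Sham mice and 1 DMSO mouse unlike its group, counts of calls moved more than directions. No gene past the threshold changed sign under any alternative, and the medians over the 48 genes moved by less than the SD between mice. In A10i against DMSO that SD was wider than the median of 0.40, so it cannot show that this median held. It ran from 0.02 without A116 to 0.88 without A129. In A10i against DMSO, no gene of either list passed under any alternative, and 51 of 384 values without 1 mouse changed sign, all of them of uncalled genes. In DMSO against Sham, where 5 of the 48 genes and 8 of the other cell cycle genes were called, DESeq2 called 18 and 28, a threshold of 0.05 called 31 and 36, no filter on low counts called 2 of the 48, library size alone 15 of the other genes and a fit of all 11 libraries 13. Of all genes, 9.28% rose and 6.98% fell by DESeq2, and 21.5% and 18.4% at 0.05. With no filter the shares were 7.9% and 5.97%, with library size alone 19.5% and 4.14%, and in the fit of all libraries 14.4% and 10.9%. Without 1 mouse the counts ran from 0 to 41 and from 4 to 30, the lowest without a Sham mouse and the highest without A105. In these fits 5.27% to 13.6% of all genes rose and 3.21% to 10.5% fell. In A10i against Sham, where 39 and 31 were called, no filter gave 9 of the 48, the fit of all 11 libraries gave 7 and 12, and a threshold of 0.05 gave 51 of the other genes. Of all genes 8.21% rose and 6.16% fell with no filter, 10.2% and 5.33% in the fit of all libraries, and 21.7% and 17.6% at 0.05. Without 1 mouse the counts ran from 9 to 41 and from 7 to 41, with 9 and 7 without S1, 14 and 8 without S3, and 20 of the other genes without A120. In these fits 6.15% to 15.2% of all genes rose and 3.13% to 10.9% fell. The cause of these shifts was not tested.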
